A study of Mus musculus with 7 samples.

Results

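Transcription factor genes that mark successive levels of the embryonic brain were followed in the cardiac region of single mouse embryos: Six3, Otx2, En1, En2, Pax2, Gbx2 and Egr2. They were chosen by name, with earlier results of these data known, and are 7 of the 48526 genes in the table. The cardiac region was dissected at embryonic day 8.5 from 4 control embryos (wild-type Hoxb1, 1 Nodal allele flanked by loxP sites and 1 intact) and from 3 mutants. The mutants carry 1 Hoxb1 allele with the Cre recombinase, and 1 floxed and 1 null Nodal allele. Cre acts where and after the Hoxb1 locus is active, all embryos are of mixed genetic background, and all carry a floxed Nodal allele. Because the mutants differ from the controls in Hoxb1, Cre and Nodal together, these cannot be told apart in any difference below.

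The neural plate is divided along its length by transcription factors before any brain region is visible from outside. Six3 specifies the most anterior forebrain and the eye, and Otx2 the forebrain and midbrain. En1, En2 and Pax2 mark the junction of midbrain and hindbrain, where the boundary between Otx2 and Gbx2 territories sets up a signalling centre, the isthmus. Gbx2 is needed in the anterior hindbrain. Egr2 (also called Krox20), a zinc finger factor, defines the odd-numbered hindbrain segments, or rhombomeres, that flank the segment in which Hoxb1 is active. Pax2 is also a gene of the otic placode and of the intermediate mesoderm, and Otx2 is also active in anterior endoderm.

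The libraries held 7155994 to 15122057 reads counted in genes. The heart muscle list, 12 genes such as Myh6 and Tnnt2, had mean log2 levels of 11.25 to 12.83 with no gene at 0, so the labelled tissue carried its defining transcripts in every embryo. A list of 21 general neural genes was far more uneven. Averaged on the log2 scale, controls 1 to 4 had 3.16, 2.16, 5.86 and 2.12, and mutants 1 to 3 had 2.90, 5.09 and 5.75. Control 3 and mutants 2 and 3 were thus the embryos with high neural levels, and these also had the lowest heart muscle levels (11.25, 11.44 and 11.86). Controls 1 and 3 and mutants 2 and 3 are labelled female, at substage E8.5e in the file header, and the 3 remaining embryos male, at E8.5f: sex cannot be told apart from substage. Lefty2, a target of Nodal, had 343 to 619 normalised reads in controls and 1.52 to 4.88 in mutants. Nodal itself had 0 reads in all mutants and in control 4.

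Promoter sequence from RefSeq was matched for 6 of the 7 genes (not En2). The 250 bases before a start site are shown for Egr2 and Gbx2, the members that passed the filter on low values with the smallest limma p between genotypes, and for Otx2 and Six3, a pair of anterior genes that varied widely within both genotypes. Each is written 5′ to 3′ on the strand of the gene (build GRCm38.p6). Capitals mark matches, on either strand, to the CArG box, the site of serum response factor, or to the CCAAT box, the E-box CACGTG, the homeodomain motif TAATTA, the Otx motif TAATCC or the TATA box TATAAA.
Egr2, chr10:67537619-67537868, plus strand: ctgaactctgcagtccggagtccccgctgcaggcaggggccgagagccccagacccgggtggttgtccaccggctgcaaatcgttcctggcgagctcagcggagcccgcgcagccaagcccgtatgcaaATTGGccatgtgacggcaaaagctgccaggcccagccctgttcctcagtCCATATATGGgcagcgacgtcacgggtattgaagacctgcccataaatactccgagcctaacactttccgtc
Gbx2, chr1:89931177-89931426, minus strand: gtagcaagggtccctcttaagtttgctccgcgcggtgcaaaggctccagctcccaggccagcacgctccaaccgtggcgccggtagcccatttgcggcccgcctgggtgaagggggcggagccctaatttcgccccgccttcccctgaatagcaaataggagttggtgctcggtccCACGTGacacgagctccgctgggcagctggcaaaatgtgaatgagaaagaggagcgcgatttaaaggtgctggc
Otx2, chr14:48667645-48667894, minus strand: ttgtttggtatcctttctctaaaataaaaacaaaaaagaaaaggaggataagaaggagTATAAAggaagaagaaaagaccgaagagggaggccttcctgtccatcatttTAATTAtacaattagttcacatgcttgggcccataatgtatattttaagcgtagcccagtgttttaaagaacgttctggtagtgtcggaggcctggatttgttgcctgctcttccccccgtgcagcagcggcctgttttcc
Six3, chr17:85620584-85620833, plus strand: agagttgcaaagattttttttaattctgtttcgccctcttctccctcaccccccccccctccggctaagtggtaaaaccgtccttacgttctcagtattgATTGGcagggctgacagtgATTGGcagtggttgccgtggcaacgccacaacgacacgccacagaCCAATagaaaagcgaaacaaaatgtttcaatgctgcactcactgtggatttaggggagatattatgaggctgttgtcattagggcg
Where a gene has several start sites, the window with the fewest bases in GENCODE exons and then the most matches was taken. The shares of all windows below were counted without such a choice, so they are not the chance of a match in a chosen window. The Egr2 window holds 1 CArG box and 1 CCAAT, and a CArG box was found in 1.47% of all 32851 windows of the same length. The Six3 window holds 3 CCAAT matches, a motif present in 33.8% of windows. TAATTA and TATAAA, each found once in the Otx2 window, occur in 4.84% and 12.4% of windows, and CACGTG, found once for Gbx2, in 6.02%. These matches describe letters and were not tested as binding sites.

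Scaled by exon length and library size (reads per kb of exon, per total reads), Gbx2 stood at the top of the 7 genes in every embryo, and En1 and En2 were at the floor. The control mean level was 8.55 ± 0.91 for Gbx2, 5.49 ± 2.03 for Otx2, 3.66 ± 1.75 for Pax2 and 2.71 ± 3.31 for Egr2 (SD, n = 4, length-scaled level). Six3 followed with 0.271 ± 0.347, En2 with 0.0494 ± 0.0250 and En1 with 0.00720 ± 0.0144 (SD, n = 4). The ranges of Otx2, Pax2 and Egr2 overlapped one another, as did those of Egr2 and Six3, whereas the lowest control value of Gbx2, 7.82, lay above the highest of Otx2, 7.49. In mutants the length-scaled means were 10.7 for Gbx2, 5.82 for Otx2, 3.88 for Pax2, 0.324 for Six3, 0.187 for Egr2, 0.0501 for En2 and 0.0375 for En1. Egr2 ranked below Gbx2 alone in control 3, behind Gbx2, Otx2 and Pax2 in the other controls and in mutant 3, and behind Six3 as well in mutants 1 and 2.

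**Figure D1:**
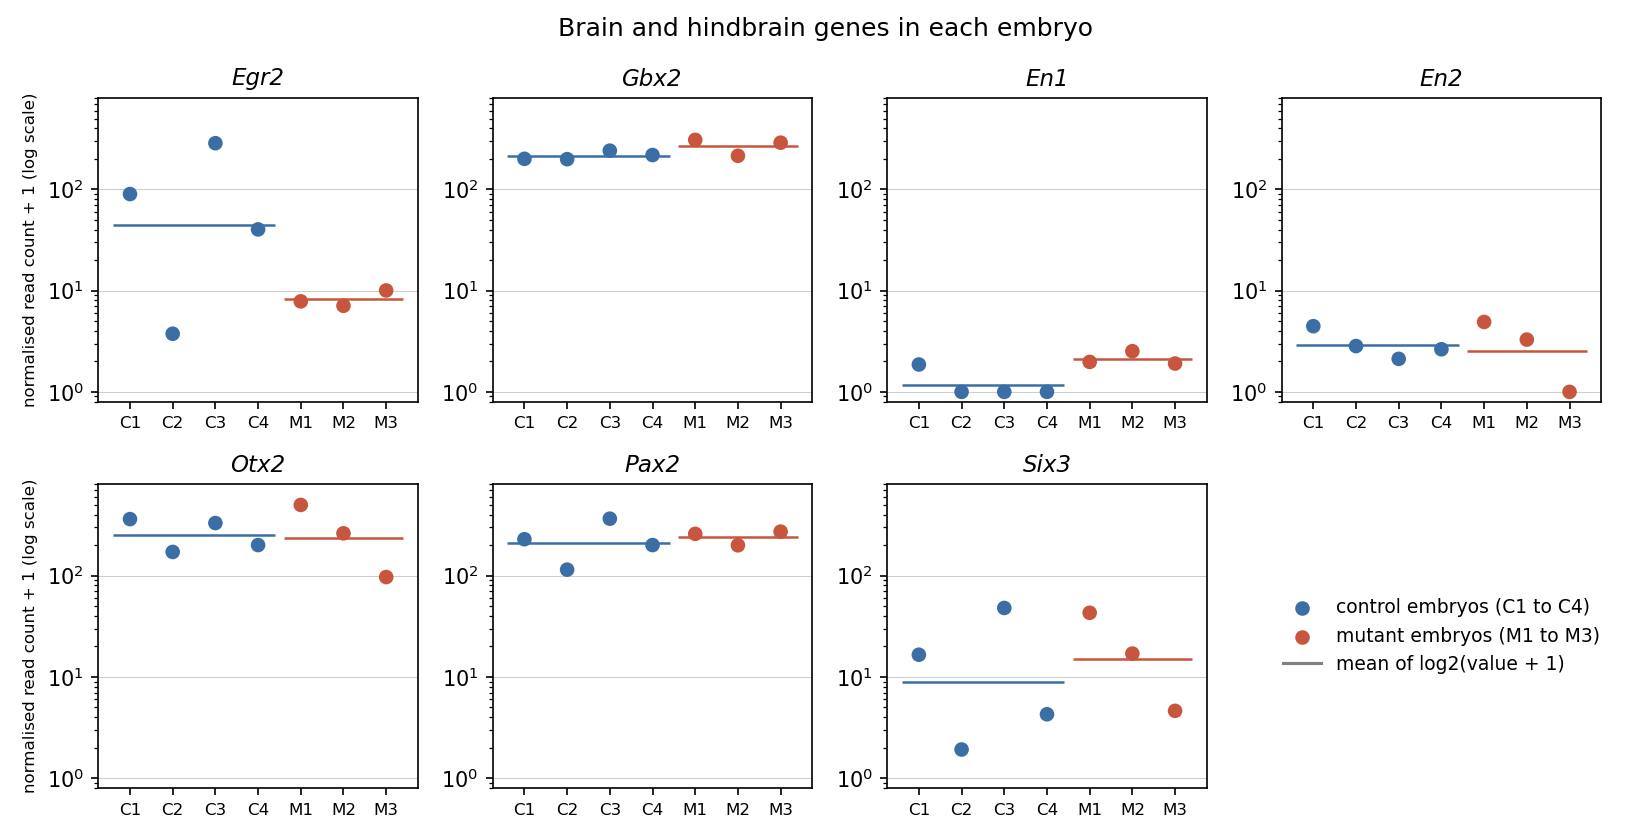
Normalised read count plus 1 (log axis) of the 7 genes in control embryos 1 to 4 (C1 to C4, blue) and mutant embryos 1 to 3 (M1 to M3, red), with lines at the group means of log2(value + 1). Egr2 spans 2.75 to 285 in controls and 6.09 to 9.05 in mutants, Gbx2 stays between 198 and 308, and En1 and En2 stay below 4.

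Egr2 (ENSMUSG00000037868, chromosome 10, 67535475 to 67542188, protein coding) was high in 3 of 4 controls and low in every mutant. Its normalised read count was 89.0, 2.75, 285 and 39.3 in controls 1 to 4, from 103, 3, 255 and 24 reads. In mutants 1 to 3 it was 6.83, 6.09 and 9.05, from 7, 8 and 10 reads. Control 2 lay below every mutant, so the groups overlapped, while the other 3 controls lay at least 4-fold above the highest mutant. The mutant mean was 7.04% of the control mean, and the difference on the log2 scale was -2.43 (SE 1.25, 95% interval -5.31 to 0.44, limma adjusted p = 0.967). The gene passed the filter on low values through controls 1, 3 and 4 alone. Among the mutants the highest value was 1.49 times the lowest, against 104 times among the controls. In bulk tissue, fewer cells of a type and less RNA per cell cannot be told apart.

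The Egr2 difference kept its sign in every alternative, all of them fits to the same embryos or part of them, but its size rested on single embryos. It was -1.54 without control 3 and -3.62 without control 2, -4.25 in the female embryos alone (2 against 2, limma adjusted p = 0.9999), and -3.83 with edgeR on recovered reads, where the adjusted p was 0.973. DESeq2 gave -3.84 (SE 1.25, adjusted p = 0.812), limma-voom on the same reads gave -2.40 (SE 1.92, adjusted p = 0.966), and no fit called the gene. In the authors' deposited table of selected genes Egr2 has a ratio of 0.0704 with p-values of 0.00220 from DESeq2 and 0.00342 from edgeR, neither of them adjusted. In the authors' deposited table of all genes its adjusted p is 1.

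Set against the neural level of the same embryo, the low Egr2 of the mutants stood beside high general neural levels in mutants 2 and 3. Control 3 and mutants 2 and 3 had neural levels of 5.86, 5.09 and 5.75, and Egr2 counts of 285, 6.09 and 9.05. Control 1 and mutant 1, with neural levels of 3.16 and 2.90, had Egr2 counts of 89.0 and 6.83. Controls 2 and 4, both male, had neural levels of 2.16 and 2.12 and yet Egr2 counts of 2.75 and 39.3. The log2 level of Egr2 minus the neural level reached 3.33, -0.25, 2.30 and 3.21 across controls 1 to 4, against 0.07, -2.26 and -2.42 across mutants 1 to 3. Control 2 thus lay between mutants 1 and 2. The means were 2.15 ± 1.66 (SD, n = 4) and -1.54 ± 1.40 (SD, n = 3), a difference of -3.68 (exact two-sided permutation p = 0.0857, where 35 arrangements allow none below 0.0286). Part of this comes from the subtracted neural level, high in mutants 2 and 3: Egr2 alone differed by -2.43. Relative to the mean of 27 hindbrain segment genes instead, the difference was -2.53 (exact two-sided permutation p = 0.143). The relative measure was chosen with earlier results of these data known. With the general neural level as a covariate, limma gave Egr2 a difference of -3.47 (SE 1.02, 95% interval -5.80 to -1.13, adjusted p = 0.816). That fit, repeated without each embryo in turn after the data had been seen, gave -4.85 to -2.45, the lowest without mutant 1 and the highest without control 3. Without control 3 the interval, -6.02 to 1.12, included 0 (limma adjusted p = 0.808).

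**Figure D2:**
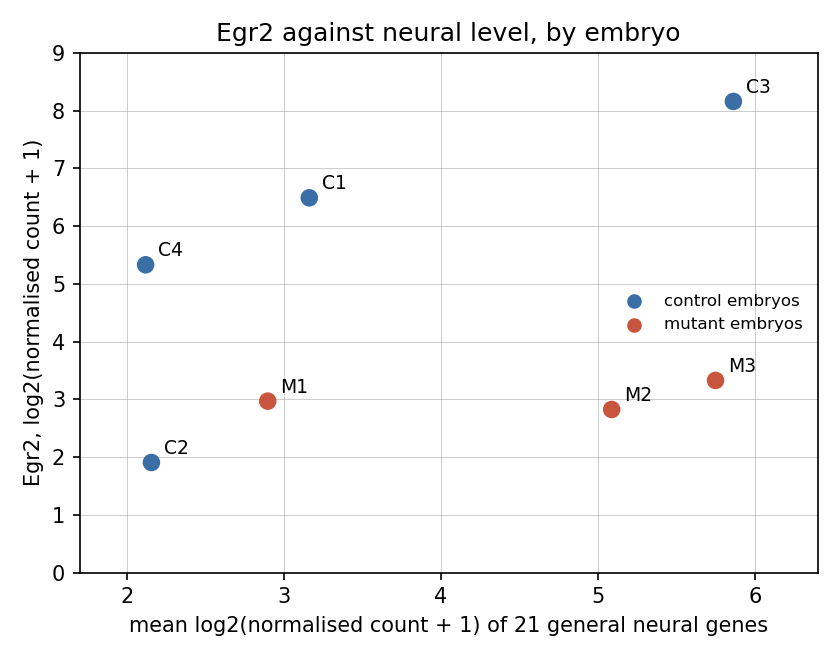
Egr2 level (vertical axis, log2 of the normalised count plus 1) against the mean log2 level of 21 general neural genes (horizontal axis) in each embryo, controls in blue and mutants in red. Controls 1, 3 and 4 lie above 5 on the vertical axis and all mutants at or below 3.33, at neural levels from 2.12 to 5.86, and control 2 lies at 1.91.

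None of the known targets and partners of Egr2 passed the test. Hoxa2 and Hoxb2, which Egr2 activates in the hindbrain, had differences of 0.14 (SE 0.52) and -0.24 (SE 0.17), and Epha4, a guidance receptor of the same segments and also a target, -0.26 (SE 0.15). Hoxa2 stood at 200.2 in control 3 and at 145 and 89.8 in mutants 3 and 2, and at 47.5 to 66.9 in the 4 other embryos. Epha4 stood at 1379 in control 3 and between 825 and 1014 in all others. The co-repressors Nab1 and Nab2, which bind Egr proteins, had differences of 0.19 (SE 0.37) and -0.17 (SE 0.21). The limma adjusted p was 0.983 for Hoxa2, 0.971 for Nab1 and 0.967 for the others.

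Hoxb1, a homeobox gene of the segment between the Egr2 segments and the locus into which Cre was placed, had 546 to 726 in controls and 315 to 401 in mutants, without overlap (-0.82, SE 0.12, limma adjusted p = 0.581). DESeq2 on recovered reads called it, and limma and edgeR did not.

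Of the 27 genes of the hindbrain segment list 26 were tested. Of these, 15 were higher and 11 lower in mutants, with a median difference of 0.02 on the log2 scale against 0.01 over all genes tested. None passed limma's adjusted threshold, against 0.0128% of all genes (2 of 15599, Lefty2 and Atp10d), and 3 had an unadjusted p under 0.05, against 3.83%. Those 3, Hoxb1, the ephrin receptor gene Epha7 (-0.23, SE 0.07) and the zinc finger gene Zfp503 (0.21, SE 0.08), were also the 3 with groups that did not overlap, against 5.78% of all genes. Their limma adjusted p were 0.581, 0.967 and 0.967. Hoxb1 enters both counts although every mutant carries Cre at 1 of its alleles by design.

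Gbx2 (ENSMUSG00000034486, chromosome 1, 89927956 to 89931179, protein coding) had the smallest spread of the tested members, and 2 of 3 mutants lay above every control. It had 199.6, 198, 240.5 and 218 normalised reads across controls 1 to 4, against 308, 214 and 289 across the mutants. Mutant 2 lay between controls 1 and 4, so the groups overlapped. The means were 214 ± 19.8 (SD, n = 4) and 270.0 ± 49.5 (SD, n = 3). The difference was 0.32 (SE 0.14, 95% interval -0.01 to 0.65, limma adjusted p = 0.967). It was 0.48 without mutant 2 and 0.22 without mutant 1, and 0.18 in female embryos alone. In the authors' deposited table of selected genes Gbx2 has a ratio of 1.26 and an edgeR p-value of 0.0399, unadjusted.

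Otx2 (ENSMUSG00000021848, chromosome 14, 48657677 to 48673819) and Six3 (ENSMUSG00000038805, chromosome 17, 85613608 to 85629302) varied more within genotypes than between them. Otx2 had 361, 171, 329.9 and 199.6 normalised reads across controls 1 to 4, against 499, 261 and 95.9 across the mutants. Six3 had 15.5, 0.917, 47.0 and 3.27 across the controls, and 42.0, 16.0 and 3.62 across the mutants. Both genes were higher in controls 1 and 3 and in mutants 1 and 2 than in controls 2 and 4 and in mutant 3; mutant 2 lay below controls 1 and 3 for Otx2, and beside control 1 for Six3. The mutants thus included the highest and the lowest Otx2 value of all 7 embryos. The difference between genotypes was -0.12 (SE 0.52, limma adjusted p = 0.986) for Otx2 and 0.74 (SE 1.17, limma adjusted p = 0.967) for Six3. Their pooled SD within genotypes, on the log2 scale, was 0.86 for Otx2 and 1.90 for Six3, more than that of 95.9% and 99.4% of genes tested. For Egr2 it was 2.06, more than 99.5% of genes, for Pax2 0.55 (88.1%) and for Gbx2 0.20 (53.7%).

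Other anterior genes listed as partners were high and low in much the same embryos. Otx1, a paralogue of Otx2, had 24.2, 11, 30.2 and 8.18 across the controls, and 46.9, 16.0 and 1.81 across the mutants. Hesx1, a homeobox gene of the anterior neural plate, had 19.9, 2.75, 13.4 and 1.64 across the controls, and 17.6, 6.85 and 0.905 across the mutants. Rax and Six6, eye field genes, had at most 2 reads in any embryo. The antisense transcript Six3os1 had 38.9, 12.8, 30.2 and 13.1 across the controls, and 43.0, 25.9 and 11.8 across the mutants. It overlaps Six3 on the other strand (106 bases of shared exon), and since the strand setting is not given, reads from the shared bases cannot be told apart. Otx2os1, which shares 154 exon bases with Otx2, had at most 7 reads. Mutant 3 combined a high general neural level (5.75) with the lowest Otx2, Otx1 and Hesx1, and mutant 1 combined a low one (2.90) with the highest Otx2 and Otx1.

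**Figure D3:**
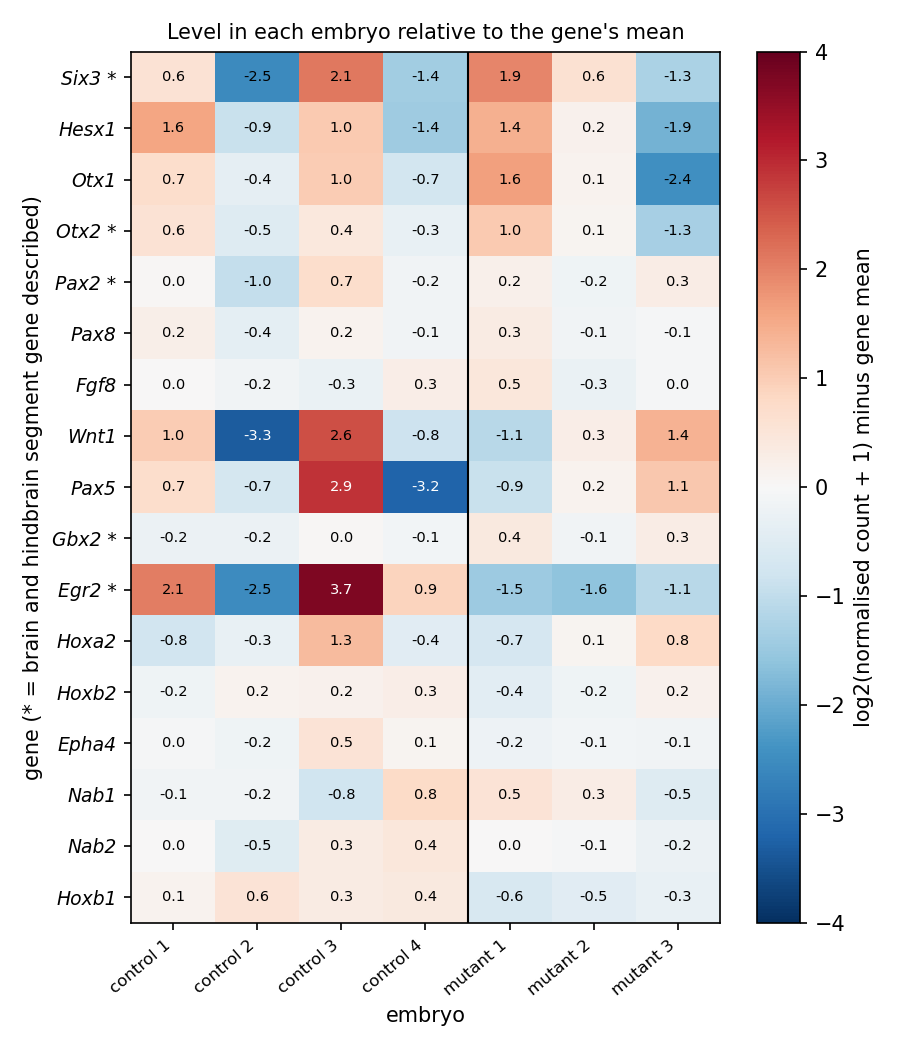
Level of each gene in each embryo, as log2(normalised count + 1) minus that gene's mean over the 7 embryos (red above, blue below the mean), for 5 of the 7 brain and hindbrain genes (asterisks) and their partners, ordered from anterior to posterior. Six3, Hesx1, Otx1 and Otx2 are above their means in control 1, control 3 and mutants 1 and 2 and below in control 2, control 4 and mutant 3, whereas Egr2 is below its mean in control 2 and in all 3 mutants.

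Pax2 (ENSMUSG00000004231, chromosome 19, 44756045 to 44837871) was present in every embryo. It had 228, 114, 365 and 199.6 normalised reads across controls 1 to 4, and mutants 1 to 3 had 258, 199 and 271, so all mutants lay within the range of the controls. The difference was 0.20 (SE 0.34, limma adjusted p = 0.968). Its paralogue Pax8, shared by the isthmus, the otic placode and the intermediate mesoderm, had 174 to 266 in controls and 206 to 286 in mutants (0.08, SE 0.18, limma adjusted p = 0.974). Pax5, the third gene of this subfamily and more restricted to the isthmus, had 13.8, 4.58, 66.0 and 0 across the controls, and 3.91, 9.13 and 18.1 across the mutants.

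The engrailed genes were at or near 0 in every embryo. Whether the reads of Otx2 and Gbx2 came from the junction of midbrain and hindbrain was not tested. En1 (ENSMUSG00000058665, chromosome 1, 120602418 to 120607992) had 1, 0, 0 and 0 reads across controls 1 to 4, and mutants 1 to 3 had 1, 2 and 1. En2 (ENSMUSG00000039095, chromosome 5, 28165694 to 28172166) had 4, 2, 1 and 1 reads across the controls, and 4, 3 and 0 across the mutants. Neither reached 10 normalised reads in any embryo. Of the 18 genes of the forebrain and midbrain list, 1 to 6 had no read in a given embryo, so the dissected tissue carried part of the brain's markers only. Exact permutation of the log2 values, two-sided, gave p = 0.0571 for En1 and p = 0.857 for En2 (smallest possible 0.0286). The normalised values of En1 did not overlap between the groups, 0 to 0.864 in controls and 0.905 to 1.52 in mutants, but the reads did, since control 1 and mutants 1 and 3 had 1 read each. Without the filter on low values limma gave En1 0.86 (SE 0.36, interval 0.04 to 1.67, adjusted p = 0.893), with the unadjusted p under 0.05. These values rest on 5 reads in all.

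The isthmus list, 11 genes of which 8 were tested, had 7 members higher and 1 lower in mutants with a median of 0.13. None of them passed the adjusted threshold or had an unadjusted p under 0.05. Fgf8, the signal of the isthmus and also of the pharynx and anterior heart field, was at 353 to 504 in controls and 348 to 579 in mutants (0.08, SE 0.19). Wnt1, the midbrain signal, ran from 0.917 in control 2 to 113 in control 3, with 7.81, 22.1 and 48.8 in mutants 1 to 3. The transcription factor genes Sp5 (0.25, SE 0.20) and Lmx1b (0.47, SE 0.45) had the smallest p. Between embryos, Fgf8 and Pax8 varied less than Wnt1 and Pax5 did. They also had more reads, at least 308 for Fgf8 and 127 for Pax8, against at most 101 for Wnt1 and 59 for Pax5. The cause of the differing spread was not tested.

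Over the 5 members that could be tested, none passed limma's adjusted threshold, where 0.0128% of all genes did, none had an unadjusted p under 0.05 (3.83% of all genes), and for none were the groups free of overlap (5.78% of all genes); En1 and En2 were below the filter. With edgeR on the recovered reads 1 of 5, Egr2, had an unadjusted p under 0.05, against 3.67% of all genes, and with DESeq2 also Egr2, against 2.86%. With limma-voom none of the 5 did, and its adjusted p for Egr2 was 0.966. After adjustment neither edgeR nor DESeq2 called a member, and they called 0.00641% and 0.0513% of all genes. With the neural level as a covariate Egr2 had an unadjusted p under 0.05, against 5.69% of all genes, and without control 3 it did not. Its unadjusted limma p was also under 0.05 with sex as a covariate, in female embryos alone and without control 2. In those fits 559, 186 and 424 of 15599 genes had such a p. In the other planned limma fits the p of Egr2 was not under 0.05. Gbx2 had an unadjusted limma p under 0.05 without the filter on low values, without control 3 and without mutant 2. Such a p was found for 1019 of 28982, 2079 of 15599 and 410 of 15599 genes in those fits. The intervals of Egr2 and Six3 span more than 5 log2 units and those of Otx2 and Pax2 more than 1.5. In the 9 tested genes of the forebrain and midbrain list, 6 were higher and 3 lower (median 0.13), with the smallest p for Foxd1 (1.04, SE 0.66) and Sp8 (1.25, SE 1.12), and none passed.

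**Figure D4:**
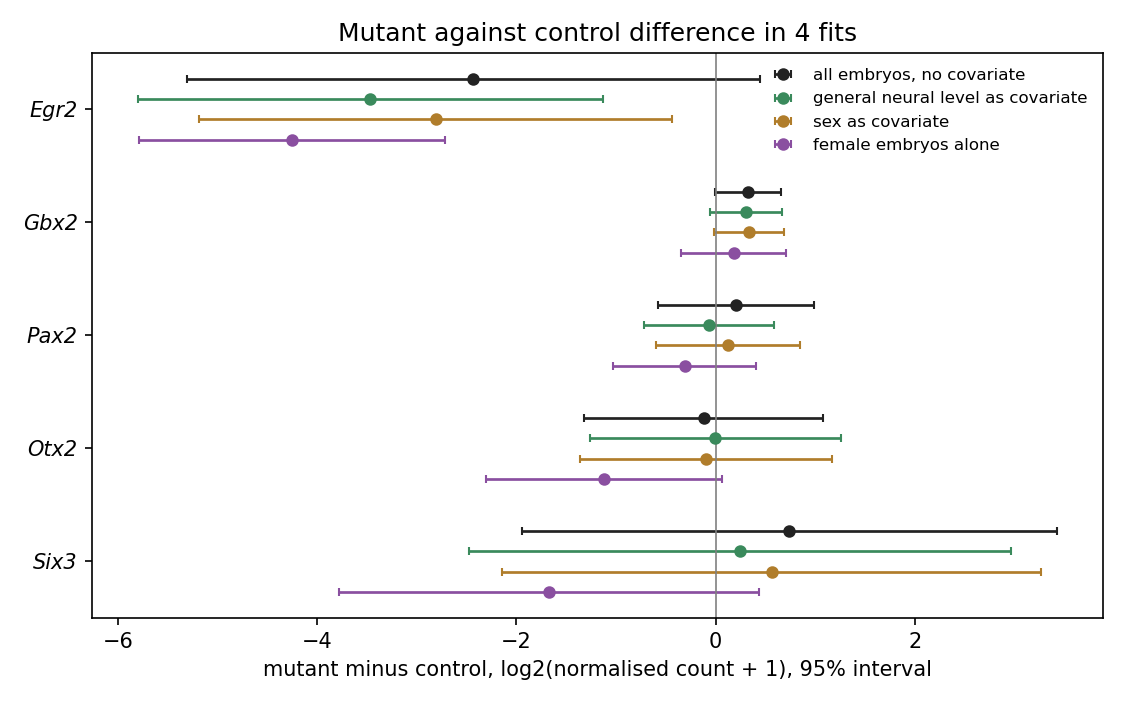
Difference between mutant and control means of log2(normalised count + 1), with 95% intervals from limma, for the 5 tested genes in 4 fits (all embryos, neural level as covariate, sex as covariate, female embryos alone). The Egr2 interval reaches 0.44 with all embryos and ends at -1.13 with the neural covariate. It ends at -0.43 with sex as covariate and at -2.71 in female embryos alone. The intervals of the other 4 genes include 0 in every fit shown.

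Genes with the most similar profiles over the 7 embryos were named by Pearson's r of the log2 level, as a description of profiles in 7 libraries. Closest to Egr2 were Spx (r = 0.983), BC085271 (0.981) and Olig3 (0.974). Spx moved between 14.7 and 25.7 only, while Olig3, a factor of the dorsal neural tube, had 26.8, 2.75, 151 and 16.4 across the controls, and 4.88, 5.33 and 9.05 across the mutants. For Otx2 the closest was Otx1 (r = 0.976), ahead of Arrdc1 (0.970) and the glutamate receptor gene Grik2 (0.956). For Six3 they were Frzb (0.973), a secreted Wnt inhibitor, Tle4 (0.968) and Sobp (0.967). For Pax2 they were Wwox (0.981), Cacna1b (0.967) and Ccdc114 (0.967), and for Gbx2 Nr2f6 (0.991), Xk (0.989) and Nelfcd (0.987). En1 and En2 had too few reads for a profile.

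Markers of other tissues in which these genes are active were measured beside them. All 14 tested general neural genes were higher in mutants (median 1.37, and -0.15 with their own mean as a covariate), among them Hes5 (1.39, SE 0.94), Nkx6-1 (2.77, SE 1.93), Pax6 (1.48, SE 1.10) and Olig2 (2.24, SE 1.73). None passed. The covariate includes these genes, so a median near 0 with it is no result. Their list was high in control 3 and mutants 2 and 3, while mutant 1 (2.90) lay below control 1 (3.16). The 14 are thus not separate results. The neural crest list (9 of 11 higher, median 0.27) had mean levels of 8.15, 6.84, 7.96 and 6.76 across the controls, and 8.24, 7.75 and 7.69 across the mutants. It was low in controls 2 and 4 as Six3 was, but not in mutant 3, where Six3 was low too. The otic and placode list, where Pax2 and Pax8 act, had 7 of 8 tested genes higher (median 0.41), led by Dlx3 (0.69, SE 0.27), and its level was 6.05 to 6.38 across the controls, and 6.85, 6.30 and 6.13 across the mutants. The intermediate mesoderm list (5 of 8 higher, median 0.10) ran from 6.88 to 7.65, with Sim1 (1.95, SE 1.27) and the receptor gene Ret (0.38, SE 0.26) at the smallest p. The foregut endoderm list (5 of 11 higher, median -0.01) ran from 7.61 to 7.87, led by Shh (0.79, SE 0.40). The somite list (6 of 7 higher, median 1.18), led by Meox2 (2.34, SE 0.94; its groups did not overlap, as for 5.78% of all genes) and Tcf15 (2.09, SE 0.96), ran from 3.23 to 5.92 in controls and from 4.60 to 6.01 in mutants, and the heart muscle list (0 of 12 higher, median -0.23), led by Ttn (-0.74, SE 0.29), from 11.25 to 12.83. In none of these lists did a gene pass the adjusted threshold, and 3 genes over all of them, Dlx3, Meox2 and Ttn, had an unadjusted p under 0.05, where 3.83% of all genes did. The part of neural, crest or placode tissue content in the values of the 7 genes was not tested beyond the covariate fit.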

How the data were processed

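Each of the 7 libraries is bulk RNA sequencing of the cardiac region of a single embryo. Per the submitters' processing notes, which give neither order nor version, the tools were Subread, featureCounts and HISAT2 with limma, edgeR and DESeq2, and GRCm38 was the build; annotation and strand setting: not given in the sources used here. The authors deposited a signal per gene: its count divided by 1 size factor per library. Nonzero values were whole multiples of the smallest step of the library within 0.1 (100% of values), so whole reads were recovered, 7155994 to 15122057 per library. The ratio and p-values quoted as such are from the authors' deposited table, per the file headers.

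Genes were tested with limma 3.58.1 in R 4.3.3 (trended empirical Bayes, Benjamini-Hochberg adjustment, threshold 0.05) on log2(normalised count + 1), without covariates; fold changes are on that scale, which understates changes of low genes. The filter kept genes that reached 10 normalised reads in 3 or more libraries (15599 of 48526). Genes below the filter were compared by exact permutation of the log2 values over embryos. Because the values are normalised, edgeR 4.0.16, DESeq2 1.42.0 and limma-voom on recovered reads served as alternatives. edgeR called 1 gene and DESeq2 8. Other alternatives changed the pseudocount, filter or scaling, added sex or the mean of 21 general neural genes as a covariate, used female embryos alone, or left out each embryo. The limma script was tested on simulated counts.

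All members are named, with partner genes fixed by name, up to 4 genes with the smallest p from each of 10 marker lists, and for each tested member the 3 genes with the most similar profile, predicted genes left out; a few genes that this rule names are not reported here. Members and lists were chosen with earlier results of these data known. No label pairs embryos across groups, and each embryo is 1 replicate. Coordinates and exon lengths are GENCODE M21 (GRCm38), in which 48058 of the gene identifiers were found; promoters are RefSeq's, build GRCm38.p6. Intervals cover the spread between libraries only.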

Additional observations from a re-analysis of the deposited data

Results flagged for a closer look

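Among 18 genes checked, the gap between the highest control, control 3 in this case, and the next, as a share of the range of the 4 controls, passed Dixon's 95% critical value for Hoxa2 (0.873), a hindbrain gene and target of Egr2. Chance alone gives this in about 5% of groups when values are normally distributed. The ratio was taken on normalised counts, not on log2 levels, so that rate is only a rough guide here. Hoxa2 alone passed among the 18 genes, which is about what such a rate gives. Control 3 also had the highest general neural level of the controls, but a link between that level and the Hoxa2 value was not tested. Egr2 itself, at 0.695, did not pass.

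In 5 of the 18 named genes that passed the filter on low values, every mutant lay below every control among the females and above every control among the males. Of all 15599 genes tested, 2.87% had this pattern. The 18 are members and their chosen partners, and Otx1 had the profile closest to that of Otx2 (r = 0.976). The 5 are therefore not independent, and their share was not tested against that of all genes. Rax, below the filter with at most 2 reads, had it too. The male mutant is a single embryo, and sex follows the substage. The male minus female difference in effect, on the log2 scale, was 2.55 for Otx2, 4.21 for Otx1, 4.73 for Hesx1, 0.88 for Pax8 and 2.58 for Six3os1. A limma interaction term did not pass for any of them (adjusted p = 0.99999 in each). Otx2 was 361 and 329.9 in female controls against 261 and 95.9 in female mutants, and 171 and 199.6 in male controls against 499 in the male mutant.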

How the results depend on the processing

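The count of genes called, 2 with limma, was 1 with edgeR, 8 with DESeq2, 0 with limma-voom (578 at an unadjusted p under 0.05), 1 with sex as a covariate, 0 in female embryos alone (186 at an unadjusted p under 0.05) and 1 to 9 when each embryo was left out, the 9 being without control 3. None of the 7 genes was among them in any fit. Egr2 stayed lower in mutants in all 24 alternatives (-4.85 to -1.54) and Gbx2 higher in all 18 (0.18 to 0.48). These alternatives reuse the same 7 embryos or part of them, so a shared sign is not independent support. Egr2 also passed the filter through controls 1, 3 and 4 alone. Its fits with the neural covariate that left out each embryo were added after the data had been seen. Otx2 turned to 0.083 with edgeR and 0.093 with DESeq2, and ran from -0.67 to 0.51 when each embryo was left out. Pax2 turned to -0.069 with the neural covariate and -0.31 in females alone, and ran from -0.085 to 0.47 when each embryo was left out. Six3 turned to -1.67 in females alone and ran from -0.020 to 1.59, and En2 from -0.68 to 0.47, when each embryo was left out. The cause of these turns was not tested. The Egr2 level relative to the neural level stayed lower in mutants in all 12 alternatives (-5.16 to -2.53, exact permutation p from 0.0667 to 0.333); without 1 embryo the range was -4.49 to -3.24, and designs of 6 embryos cannot reach 0.05. With the filter at 50 normalised reads, Egr2 and Six3 were not tested, and for En1 and En2 the count models and covariates were not run because both lie below the filter. No paired analysis was possible because the labels give no number that embryos of the groups share. Counts of 0 to 4 reads limit what can be said of En1 and En2.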

Other observations

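The brain lists held genes of differing profiles, and those named here were picked after their values were seen. Cyp26c1, a retinoic acid hydroxylase of the head, had 652, 136, 833 and 177 normalised reads across controls 1 to 4, against 544, 249.6 and 97.7 across mutants 1 to 3, and Dmbx1, a midbrain homeobox gene, 70.0, 48.6, 63.7 and 31.1 against 133, 41.9 and 10.9. Both were lowest in mutant 3, as Otx2 was. Other genes of the forebrain and midbrain list were not: mutants 1 to 3 had 97.6, 242 and 388 for Foxd1, 25.4, 149.9 and 229 for Sp8, and 18.5, 8.37 and 23.5 for Barhl2. Hoxd3, a gene of more posterior neural tube, had 1.95, 84.5 and 149 in mutants, 100.7 in control 3 and at most 5.18 in the other controls. Sox10, a neural crest gene, had 155 and 249.9 in control 1 and mutant 1 and at most 30.4 elsewhere.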
